A study of Mus musculus with 2 samples.

Results

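The 10 genes described here encode the signature cytokines of helper T cells: Il4, Il5, Il13, Il10, Il9, Il3, Ifng, Il2, Il17a and Il21. They were taken by name, as every probe with 1 of these symbols as its only gene symbol in the platform annotation. All 10 had a probe, 1 each, among 4331 named genes on the array. Total RNA of LatY136F CD4+ alpha beta T cells and of wildtype CD4+ alpha beta T cells, both from mouse spleen, was hybridised together on 2 two-colour arrays with the dyes reversed. On array 1 the LatY136F RNA was in channel 2, on array 2 in channel 1. For both, MACS with beads against CD4 was combined with sorting on a FACSDiva. The sources used here name no strain, age, number or pooling of mice, and do not say whether the arrays held separate RNA extracts. The pair was therefore treated as 1 biological comparison without a test, and its spread may be technical.

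LatY136F is a mouse allele of Lat, the adaptor that is phosphorylated after the T cell receptor is engaged and recruits downstream signalling proteins. The substituted tyrosine is the docking site of phospholipase C gamma, which feeds the calcium and NFAT pathway. Helper T cells are classed by the cytokines they secrete: Il4, Il5 and Il13 mark the Th2 type, Ifng the Th1 type, Il17a the Th17 type, and Il21 is prominent in follicular helper cells. Published work describes T cells of LatY136F mice as strongly Th2-polarised. That background is also what makes the assumed direction of the ratio plausible, so the sign of the Th2 genes is not independent evidence.

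Values are log2 ratios of LatY136F over wildtype, centred on each array's median, with array 2 multiplied by -1. They assume that the deposited number is channel 2 over channel 1 and is a log10 ratio, neither of which the sources state. The opposite reading would turn every sign, and a log2 reading would shrink every value. A mean is followed by ± 0.5 times the difference between the 2 arrays. A call, higher or lower, required a difference of at least 2-fold in the same direction on both arrays. The table holds ratios and no signal, so whether a probe was above background, and whether the T cell markers themselves were present at high level, could not be examined.

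Of the 10 cytokine genes, Il13 and Il10 were called higher in LatY136F cells and none was called lower. Over all 4331 genes, 4.2% were called higher and 0.97% lower. Il5 passed 1.5-fold on both arrays as a further gene, which made 3 of 10 at that level beside 7.83% of all genes. The median of the 10 means was 0.41, against 0.0004 for all genes. Whether more cells of a type or more RNA per cell stands behind a ratio in such bulk RNA cannot be told apart.

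**Figure D1:**
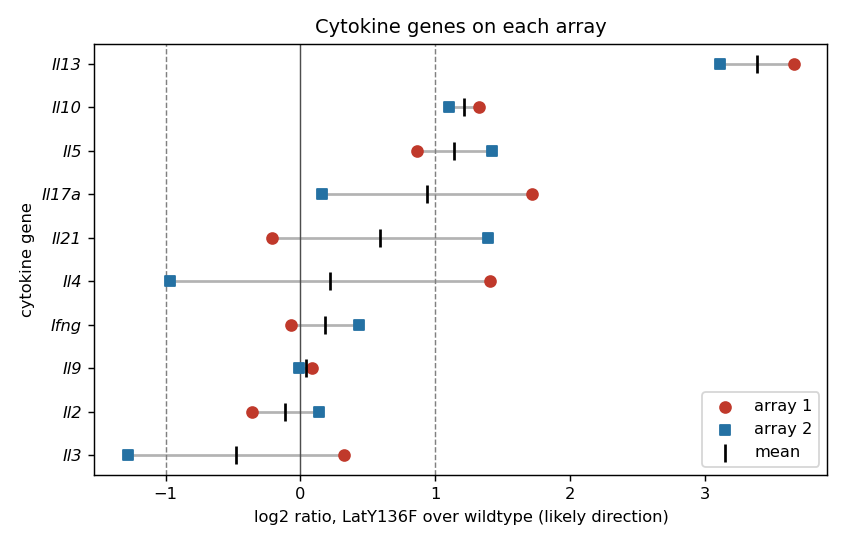
Log2 ratio of LatY136F over wildtype (x axis, likely direction) for the 10 cytokine genes (y axis, ordered by their mean), with array 1 as circles, array 2 as squares and the mean as a bar; dashed lines mark 2-fold. Il13 stands apart from the other genes on both arrays, Il10 is the only other gene beyond 2-fold on both, and the lines of Il4, Il3, Il21 and Il17a are long.

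Among the Th2 cytokines, Il13 had the highest ratio on both arrays, Il5 followed by its mean and Il4 had values on both sides of 0. Il13, an effector cytokine that acts on epithelium and drives mucus production, stood at 3.67 on array 1 and 3.12 on array 2. These are ratios of 12.7-fold and 8.67-fold, and the mean of 3.39 ± 0.27 held rank 14 of 4331 genes. Both arrays placed Il13 close to the top, at rank 14 and rank 18. Il5, the growth and survival factor of eosinophils, stood at 0.86 on array 1 and 1.42 on array 2, or 1.82-fold and 2.68-fold. Both ratios were above 0, and array 1 alone kept Il5 (1.14 ± 0.28, rank 205) from being called.

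Il4, the cytokine that instructs Th2 differentiation and switching to IgE, had no direction. It stood at 1.41 on array 1 and at -0.97 on array 2, which gave a mean of 0.22 ± 1.19. As deposited, before turning, the Il4 values on the log2 scale were 1.40 and 0.99. Channel 2 was thus the stronger one on both arrays, although it held LatY136F RNA on array 1 and wildtype RNA on array 2. Of all genes, 97.4% had a smaller difference between the arrays than Il4.

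Il13, Il4 and Il5 are neighbours on mouse chromosome 11, with Rad50, a DNA repair gene whose locus holds control elements of these cytokines, between Il13 and Il5. Rad50 itself stood at 0.04 ± 0.07, and Irf1, an interferon-induced transcription factor gene next to Il5, at -0.20 ± 0.19. On the other side Gdf9, an oocyte growth factor gene, stood at 1.27 on array 1 and 0.02 on array 2. The high Il13 ratio was thus flanked by a Rad50 ratio near 0 on both arrays. Across the loci of all 10 cytokines, 68 other protein-coding genes lay within 5 genes on either side, and 23 of them were measured. Their median was -0.02, with a range of -0.74 to 1.78. The 1 called was Tgfbi near Il9, an extracellular matrix gene induced by TGF-beta, at 1.78 ± 0.58. That 1 of 23 is near the 4.2% of all genes called higher.

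**Figure D2:**
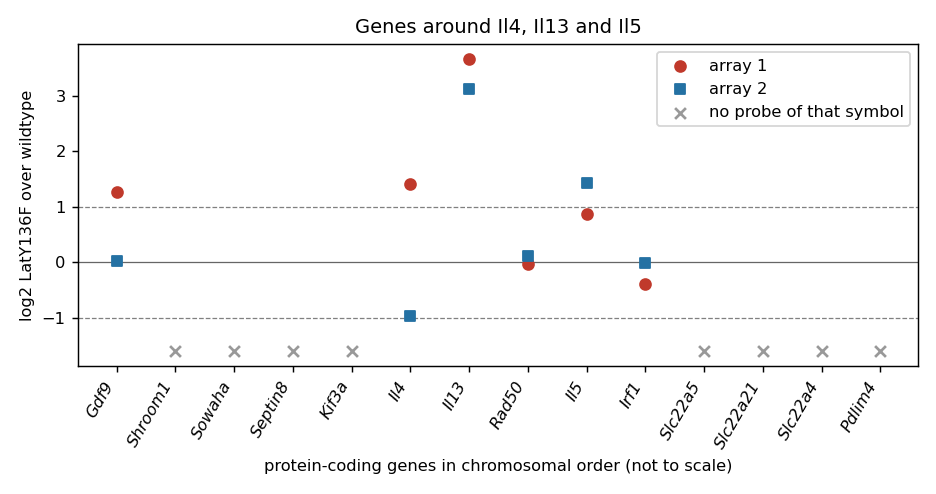
Log2 ratio of LatY136F over wildtype (y axis) for the protein-coding genes around Il4, Il13 and Il5 in chromosomal order (x axis, not to scale), array 1 as circles and array 2 as squares; crosses mark genes with no probe of that symbol and their height has no meaning. Il13 is at 3.67 and 3.12, Il5 at 0.86 and 1.42, Il4 is on both sides of 0, and Rad50 lies near 0 on both arrays.

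The start regions of these 3 linked genes are shown because Il13 had a higher ratio than Il5 and Il4 on both arrays while sharing their locus. The spans of Il5 and Il4 overlapped. NFAT, the factor released by calcium signalling, binds the core GGAAA, which is capitalised in either orientation (GGAAA or TTTCC). Each run has 300 bases, from 250 before to 50 after the RefSeq start (GRCm38.p6), 5′ to 3′ on the gene's strand. Il13 lies at chr11:53634653-53634952 on the minus strand, Il5 at chr11:53720544-53720843 on the plus strand, and the further upstream of 2 Il4 windows at chr11:53618616-53618915 on the minus strand.
Il13: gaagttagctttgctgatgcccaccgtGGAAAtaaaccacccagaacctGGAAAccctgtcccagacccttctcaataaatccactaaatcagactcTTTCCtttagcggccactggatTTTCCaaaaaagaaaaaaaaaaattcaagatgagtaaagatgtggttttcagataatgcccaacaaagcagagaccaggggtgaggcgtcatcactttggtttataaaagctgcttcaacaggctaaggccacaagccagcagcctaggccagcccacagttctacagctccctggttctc
Il5: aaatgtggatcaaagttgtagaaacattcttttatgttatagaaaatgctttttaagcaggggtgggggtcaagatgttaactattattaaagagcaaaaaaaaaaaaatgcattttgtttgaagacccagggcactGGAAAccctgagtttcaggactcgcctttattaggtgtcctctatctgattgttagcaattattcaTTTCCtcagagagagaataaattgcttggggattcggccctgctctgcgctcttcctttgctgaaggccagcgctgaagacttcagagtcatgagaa
Il4: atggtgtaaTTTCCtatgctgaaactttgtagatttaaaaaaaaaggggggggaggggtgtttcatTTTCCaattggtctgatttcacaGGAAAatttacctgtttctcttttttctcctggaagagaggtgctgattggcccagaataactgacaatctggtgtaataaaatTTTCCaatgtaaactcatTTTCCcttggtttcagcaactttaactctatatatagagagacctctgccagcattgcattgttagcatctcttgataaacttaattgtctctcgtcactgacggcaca

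RefSeq windows were found for 9 of the 10 genes, 10 windows in all, with 2 for Il4. The gene without a window was Il10, so of the 2 genes called only Il13 is covered here. The NFAT core had 4 matches in Il13, 2 in Il5 and 5 in the printed Il4 window, and 1 in the other Il4 window. The remaining genes had 3 matches in Il9 and Il21, 2 in Il2, 1 in Il3 and Ifng and none in Il17a. The core contains GGAA, the core of Ets factors, so a match does not separate the families, and 61.3% of 32851 promoter windows hold at least 1. The GATA core AGATAA, searched on both strands (TTATCT), was found in the windows of Il13 and Il3 and in 11.2% of all windows. Only this exact form was counted. Variants such as TGATAA in the printed Il4 window and CTATCT in the Il5 window were not, so a window without a match may still hold a GATA site. The AP-1 motif TGANTCA, which reads the same on both strands, was found in those of Il9 and Il17a and in 7.81% of all. The TATA motif TATAAA or its reverse TTTATA stood in the windows of Il13, Ifng, Il2 and Il17a and in 13.6% of all, with the 2 Il13 matches overlapping each other. These matches describe letters and do not show binding.

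Il10, a cytokine that restrains inflammation and is made by several helper and regulatory T cell types, was the other gene called. It stood at 1.33 on array 1 and 1.11 on array 2, a mean of 1.22 ± 0.11, or 2.32-fold higher in LatY136F cells (rank 177). With the exception of Il9, the arrays differed less for Il10 than for any other of the 10 genes. The nearby cytokine gene Il20 stood at -0.51 on array 1 and 0.40 on array 2, and Mapkapk2, a stress kinase gene on the other side, at 0.25 ± 0.11. Neither was called.

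Il9 and Il3 are growth factors for mast cells and other haematopoietic cells. Il9 stood at 0.08 on array 1 and -0.01 on array 2, and its mean of 0.04 ± 0.05 was the closest to 0 of the 10. Il3 stood at 0.33 on array 1 and -1.28 on array 2, with a mean of -0.48 ± 0.80. Its ratio was more than 2-fold apart on 1 array and in the opposite direction on the other, so Il3 had no direction. Csf2, the granulocyte and macrophage growth factor gene next to Il3, stood at 0.50 on array 1 and -0.30 on array 2 and was not called either.

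The Th1, Th17 and follicular cytokines and Il2 were not called. Ifng, the macrophage-activating cytokine of Th1 cells, stood at -0.07 on array 1 and 0.44 on array 2. Il2, the growth factor that T cells secrete on activation, stood at -0.36 on array 1 and 0.14 on array 2 (-0.11 ± 0.25). For both genes the arrays lay on either side of 0 and under 1.5-fold. Il17a, which recruits neutrophils through epithelial chemokines, stood at 1.72 on array 1 and 0.16 on array 2, or 3.30-fold and 1.12-fold. Il17a was above 0 on both arrays, and its mean of 0.94 ± 0.78 rests mostly on array 1. Il21, which supports germinal centre B cells, stood at -0.21 on array 1 and 1.39 on array 2 (0.59 ± 0.80). Its neighbour Il2 did not share the high value on array 2.

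**Figure D3:**
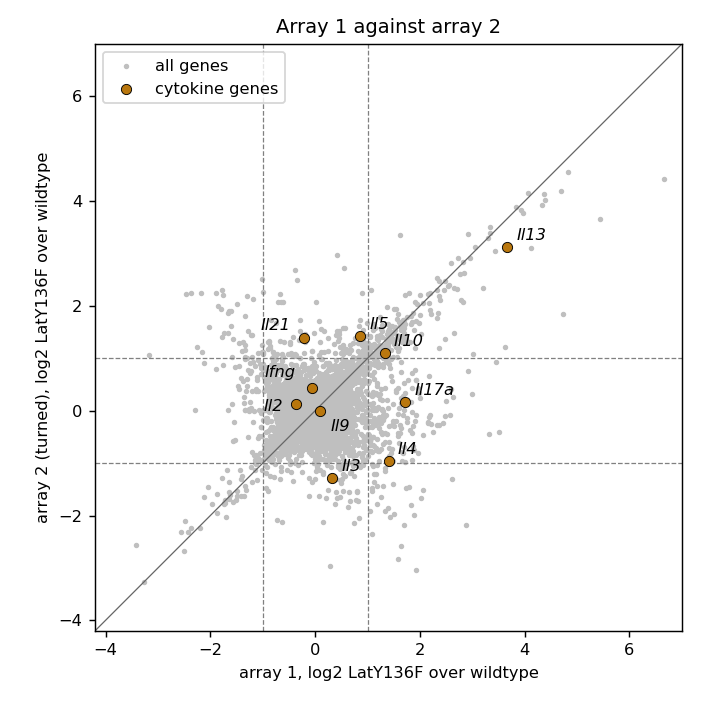
Log2 ratio of LatY136F over wildtype on array 2 after turning (y axis) against array 1 (x axis) for 4331 genes in grey and the 10 cytokine genes in brown; dashed lines mark 2-fold and the diagonal marks equal values. Il13, Il10 and Il5 lie near the diagonal at the upper right, while Il4, Il3, Il17a and Il21 lie off it.

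In order of the mean the genes ran Il13, Il10, Il5, Il17a, Il21, Il4, Ifng, Il9, Il2 and Il3. The span between a gene's 2 array values overlapped that of the next gene in order for every neighbouring pair except Il13 and Il10. Il10 lay within the span of Il5, so the order of such neighbours is not fixed by these arrays. Genes further apart could be ordered: Il10 and Il5 both lay above Ifng, Il9, Il2 and Il3 on each array.

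Agreement between the arrays set limits on most of these genes. The signs were opposite for 6 of the 10 (Il4, Il9, Il3, Ifng, Il2 and Il21), beside 44.2% of all genes. As deposited, channel 2 was the stronger on both arrays for 3 of them (Il4, Il9 and Il3) and channel 1 for the other 3 (Ifng, Il2 and Il21). Il9 lay near 0 on both arrays, at 0.08 and -0.01, so its signs carry little weight. The 4 genes with 1 sign (Il13, Il10, Il5 and Il17a) were all above 0, Il17a by only 0.16 on array 2. Of all genes, 52.7% were above 0 on array 1 and 52.1% on array 2. The share above 0 on both arrays was not counted. The difference between the arrays, multiplied by 0.5, had a median of 0.28 over the 10 genes, against 0.15 over all genes. It was at least 0.5 for 4 of the 10 (Il4, Il3, Il21 and Il17a) and for 15.6% of all genes. The share of this difference that comes from dye, from dim probes or from the RNA was not tested.

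**Figure D4:**
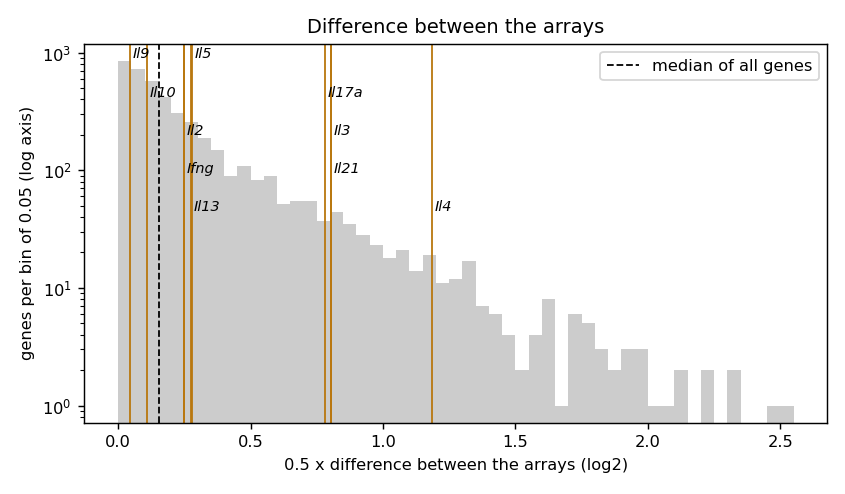
Number of genes (y axis, log scale, bins of 0.05) by 0.5 times the difference between the arrays on the log2 scale (x axis), with the 10 cytokine genes as labelled lines and the median of all 4331 genes dashed. Il9 and Il10 lie below the median of 0.15, and Il4 at 1.19 is furthest out of the 10.

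Likeness to the called genes was measured as the Euclidean distance between pairs of log2 ratios over the 2 arrays. Nearest to Il13 were Ptgir, the prostacyclin receptor gene (3.44 and 3.05, distance 0.24), Asns, which makes asparagine (3.29 and 3.31, distance 0.42), and Fpr2, a formyl peptide receptor gene (3.34 and 3.39, distance 0.42). Nearest to Il10 were the chemokine receptor gene Ccr1 (distance 0.02), the platelet integrin gene Itga2b (distance 0.04) and the long non-coding RNA gene Morrbid (distance 0.05). With 2 values per gene from 1 comparison, likeness says no more than that the ratios were similar in size.

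The transcription factors that direct these cytokines were higher in part. Of 20 measured helper lineage factors, 5 were called higher and none lower, with a median of 0.33. Over all genes 4.2% were called higher and 0.97% lower. This list and the lists that follow were chosen with earlier results of these data known. Their counts therefore describe the named genes and do not test them against all genes. Gata3, which opens and activates the Il4, Il5 and Il13 locus, stood at 2.95 on array 1 and 2.91 on array 2, and Batf, an AP-1 partner of Irf4, at 2.01 ± 0.23. The homeobox gene Hlx stood at 1.71 on array 1 and 1.29 on array 2, the ligand-activated factor gene Ahr at 1.23 ± 0.06 and Irf4 at 1.22 ± 0.18, which completed the 5. Maf, an activator of Il4 and Il10, stood at -0.39 ± 0.07. Prdm1, the Blimp-1 gene, which promotes Il10, stood at 0.91 and 1.53, below 2-fold on array 1. Nfil3, a leucine zipper factor gene, stood at 1.30 and 0.83, below 2-fold on array 2. Tbx21, the Th1 master factor gene, had opposite signs at 1.07 and -0.77. Ifng also had opposite signs, but the other way round, at -0.07 and 0.44. Among 23 factors that T cell receptor signals bring to cytokine genes, Egr1 was called higher (1.15 ± 0.14), none was lower and the median was 0.17. That 1 of 23 is near the share over all genes. The NFAT genes Nfatc1 (0.48 ± 0.24), Nfatc2 (0.37 ± 0.15) and Nfatc3 (0.00 ± 0.03), named for their link to the motif after their values were seen, were not called.

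None of 14 measured receptor genes for the 10 cytokines was called, and their median was 0.12. Over all genes 4.2% were called higher and 0.97% lower. The highest was Csf2rb, the shared signalling chain for Il3 and Il5, at 0.77 ± 0.18. Csf2rb2, its close copy, stood at -0.43 on array 1 and 1.42 on array 2, and because the copies are near-identical their probes may share target RNA. Il10ra, the binding chain for Il10, stood at 0.40 ± 0.09, Il5ra, that for Il5, at 0.22 ± 0.21 and Il21r at -0.02 ± 0.02. Il9r showed the same kind of array difference as Il4, with 1.33 on array 1 and -1.16 on array 2. Genes that cytokines are known to induce went both ways, with 3 of 17 higher, 1 lower and a median of 0.29, beside the same shares of all genes. Of their means 9 were above 0 and 8 below. The STAT5 target Cish stood at 2.68 ± 0.08, the feedback inhibitor gene Socs3 at 1.54 ± 0.01 and Il17rb, the receptor gene for interleukin-25, at 2.19 ± 0.04. Arg1 (1.06 ± 0.07) and Socs1 (0.90 ± 0.03), named after their values were seen, were not called. Fcer2a, the low-affinity IgE receptor gene of B cells, which Il4 is known to induce, was called lower at -1.14 ± 0.01. Its decrease stood beside lower B cell markers, given next.

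Other cytokine genes of lymphocytes and their partners were mostly not called: 4 of 32 were higher and none lower, with a median of 0.06. Over all genes 4.2% were higher. The 4 were Csf1, the macrophage growth factor (4.69 ± 0.14), Il6 (4.54 ± 0.89), the chemokine gene Ccl1 (1.49 ± 0.13) and Ebi3, a subunit of interleukin-27 and interleukin-35 (1.41 ± 0.14). Tnf stood at -0.21 ± 0.07, the lymphotoxin genes Lta at -0.51 ± 0.01 and Ltb at -0.73 ± 0.04, and Xcl1, a chemokine gene of activated T cells, at -0.52 ± 0.01. In contrast to Il4 and Il3, these 4 genes had close values on the arrays, on the side of lower in LatY136F cells, and none passed 2-fold. They do not stand for the list, in which 19 means were above 0 and 13 below. The cytokine gene Tnfsf11 had close values on the higher side, at 0.78 on array 1 and 0.77 on array 2. Il22, a Th17-associated cytokine gene close to Ifng with a near-identical copy (Iltifb) beside it, stood at 0.13 on array 1 and -0.45 on array 2.

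**Figure D5:**
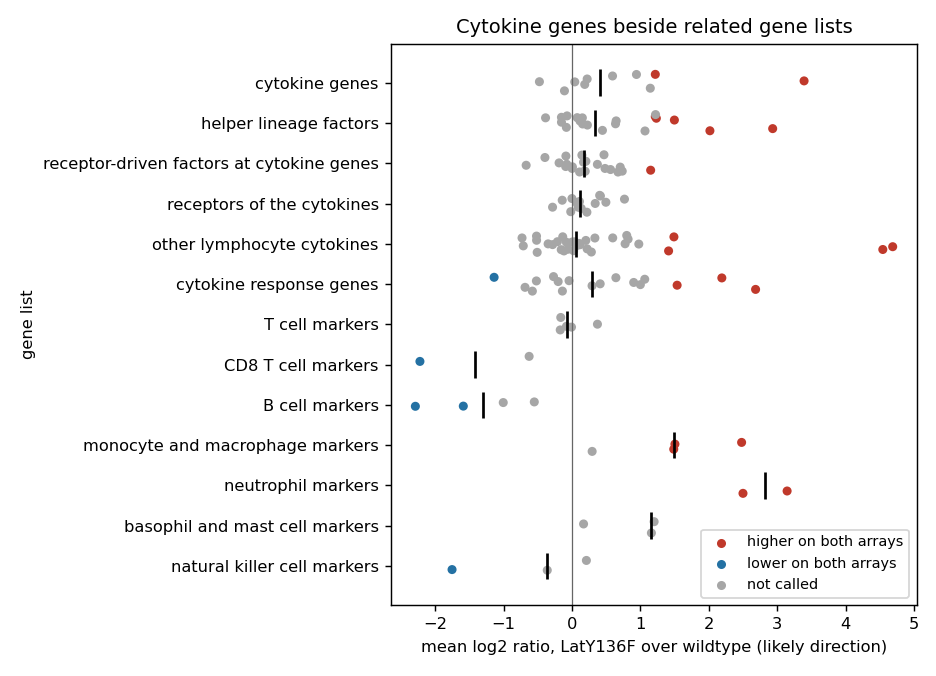
Mean log2 ratio of LatY136F over wildtype (x axis) for each measured gene of the cytokine genes and of related lists (y axis), with genes called higher in red, lower in blue and not called in grey; black bars are list medians. The cytokine genes have a median of 0.41 with Il13 far to the right, receptors of the cytokines lie around 0, and monocyte and neutrophil markers lie to the right of B cell markers.

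Cells other than CD4+ T cells can make several of these cytokines, and markers of such cells differed too. Beside the counts below, 4.2% of all genes were called higher and 0.97% lower. These marker lists too were chosen with earlier results known, so the counts are descriptive. Of 7 listed basophil and mast cell markers, which mark cells able to make Il4 and Il13, only 3 were measured and none of these was called. Ms4a2, the beta chain of the high-affinity IgE receptor, stood at 0.96 and 1.43, Fcer1a, its alpha chain, at 1.99 and 0.33 and Kit at 0.33 and 0.00. All 3 means were above 0, from 0.17 to 1.20. Fcer1g, the gamma chain of the same IgE receptor, was called higher but was counted only with the monocyte and macrophage markers. Monocyte and macrophage markers, which mark cells able to make Il10, were higher in 3 of 4 (C1qc, Fcer1g and Adgre1, means 0.29 to 2.48 over the list), and both neutrophil markers measured were higher (Ngp at 2.50 and Lcn2 at 3.14). Of natural killer cell markers, which mark Ifng producers, Klrd1 was the 1 called lower of 3, with means from -1.75 to 0.21. Of 4 B cell markers Cd79b and Cd22 were lower (-2.29 to -0.55 over the list), and of 2 CD8 T cell markers Cd8b1 was lower, at -2.22, with the other at -0.63. The 5 T cell markers measured lay between -0.17 (Cd3d) and 0.37 (Cd3g), with Cd4 at -0.17 ± 0.09 and Cd3e at -0.01 ± 0.13. The 3 eosinophil markers listed had no named probe here. The part of these cells in the cytokine ratios was not tested.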

How the data were processed

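Two-colour array ratios of LatY136F against wildtype splenic CD4+ alpha beta T cells were read from the deposited value table, which holds 1 log10 ratio per probe and array as the authors made it (8014 probes). The log10 unit is inferred: the highest value is exactly 2 on array 1, a 100-fold cap on that scale. Background correction, normalization, base and direction were not given in the sources used here, and signals were not analysed. Array 2 was turned because the labels put its LatY136F RNA in channel 1. The deposited columns correlated at r = -0.21 over all probes, which was not used to set the sign. Values were multiplied by 3.32, centred per array on the median of all probes (deposited medians -0.0033 and 0.0070) and averaged over probes of a gene. Of the probes, 4654 had 1 symbol, 73 several and 3287 none. Named were the 10 cytokines, the 3 nearest genes of each called cytokine, Gata3 and Maf, up to 4 called genes per list (2 where none was called), and any helper lineage factor, receptor or other cytokine. Chromosomal neighbours, the other markers (Cd4, Cd3e, Kit), and genes named as chosen later lie outside that rule. Members and lists were chosen with earlier results of these data known. The calling rule and limma were tested on simulated data. Software was Python 3.11.15, pandas 2.3.3, R 4.3.3 and limma 3.58.1. Alternatives were single arrays, centring, scaling, sign, turning, probe choice, log base, threshold and limma. The number of arrays limits the precision.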

Additional observations from a re-analysis of the deposited data

How the results depend on the processing

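The 2 cytokine genes called higher, Il13 and Il10, were called as well without centring and with the arrays scaled. Choosing the strongest probe per gene cannot change any of the 10, which have 1 probe each. Each array alone called 4 higher: Il13, Il10, Il4 and Il17a on array 1, and Il13, Il10, Il5 and Il21 on array 2. On each array Il10 ranked last of the 4 called, at 252 of 4331 genes on array 1 and 285 on array 2. At least that many genes thus passed 2-fold higher on that array. The share of all genes called was not counted for single arrays, 3-fold or 2-fold on the mean. Array 2 alone called 1 lower (Il3) and array 1 alone 0. A threshold of 3-fold left 1 (Il13), and 1.5-fold on both arrays or 2-fold on the mean gave 3 by adding Il5. Turning all signs gave 0 higher and 2 lower, a median of -0.41 in place of 0.41, and -3.39 for Il13 and -1.22 for Il10. With array 2 not turned, 0 were called higher and the median was 0.078. Read as log2, 0 were called higher and the median was 0.12. limma on the 2 arrays as replicates called 0 cytokine genes and 0 of all genes at an adjusted p under 0.05, with 3 cytokine genes and 616 of all genes at an unadjusted p under 0.05. The 1 called locus neighbour became 3 at 1.5-fold, 0 at 3-fold, 0 read as log2, and 2 to 4 on single arrays. These counts take higher and lower calls together. At 1.5-fold they include Rapgef6, which was lower at -0.77 on array 1 and -0.71 on array 2. The share of all genes called in either direction was not counted at these settings. The neighbour counts were added after seeing the data. The sign of the mean changed for Il4, Il9 and Il2 on array 2 alone, for Il3, Ifng and Il21 on array 1 alone, for Il5, Il3, Ifng and Il21 with array 2 not turned, and for all 10 with all signs turned; it changed for none without centring or with scaling. Thresholds, single arrays, turning signs and the log base move these values by construction, as does limma, whose rule differs. No paired analysis was possible because the dye-reversal pair forms a single comparison.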
